A study of Drosophila melanogaster with 12 samples.

Results

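The cytoplasmic ribosomal protein genes of Drosophila melanogaster were followed through 3 stages of the female germline, from growing oocytes to activated eggs, in wild type flies and in flies that lack the poly(A) polymerase Wispy. The genes were taken by symbol. Every record whose gene symbol begins with RpL or RpS was included, together with sta, which encodes the small subunit protein known in mammals as RPSA, and RpLP0-like was left out. The rule found 84 genes of 5421 records, 50 named for the large subunit and 34 for the small subunit. The current annotation holds 92 genes under the same rule, and the other 8 (RpL10Aa, RpL22-like, RpL37-2, RpS10a, RpS19b, RpS27A, RpS28-like and RpS28a) were not analysed here. RpL7-like and RpL24-like meet the rule by name, but they are related to factors that assemble the large subunit in yeast, not to core ribosomal proteins.

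Ribosomal proteins are built into the large and small ribosomal subunits in near-equal numbers, and their mRNAs are among the most abundant of a growing cell. Nurse cells and the oocyte make and store the ribosomes and the mRNAs that the embryo uses before its own genome is transcribed. From the late oocyte to the early embryo there is little or no transcription, so mRNA levels in this window depend on stability and on control of the poly(A) tail. Wispy is the cytoplasmic polymerase that lengthens poly(A) tails of maternal mRNAs in late oogenesis and at egg activation.

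Total RNA was sequenced in 12 libraries, 2 for each of 6 groups. The mutant groups carried wispKG5287, which the labels describe as a knockout and a null allele, and the wild type groups were w1118. For each genotype there were immature oocytes (stages 9 to 10 of oogenesis), mature oocytes (stage 14) and activated unfertilized eggs 0 to 1 h old. Oocytes were dissected by hand from females 3 or 4 days old. Eggs were laid unfertilized after mating to sterile sons of tud1 mothers, and the protocol text names w1118 virgin females for all samples, so the maternal genotype of the mutant eggs rests on the genotype label. ERCC spike-in RNA went into each sample at the same amount per total RNA, and ribosomal RNA was removed. The labels call the replicates biological.

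Values were the authors' normalised read counts. A record was listed only where it reached 100 in each library, and the lowest value in any library was 100.07. Library sums lay between 11081267 and 14089899. The sequencing depth behind them is unknown, so no counting interval is given. The wisp record itself had 718 and 249 counts in the mutant immature libraries, 249 and 259 in the mutant mature and 189 and 397 in the mutant activated libraries, against 3623 to 17226 over the wild type libraries. All 20 germline markers looked for were listed, with summed counts of 121103 to 159052 in the mutant libraries and 96442 to 135649 in the wild type libraries. None of 25 follicle cell markers and none of 10 markers of muscle, fat body and blood was listed, which says only that each fell under 100 in at least 1 library. In bulk RNA a change in the number or kind of cells and a change in RNA per cell cannot be told apart.

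The ribosomal protein genes were more abundant in mutant than in wild type libraries at every stage. They took 14.5% and 14.9% of the summed protein-coding counts in mutant immature oocytes, against 9.21% and 13.2% in wild type immature oocytes. The share was 10.4% and 9.89% in mutant mature oocytes, against 7.76% and 7.07% in wild type mature oocytes. In activated eggs it was 15% and 9.67% in the mutant, against 7.84% and 5.03% in wild type. The 2 genotypes did not overlap at any stage, but the second wild type immature library and the second mutant activated library each lay closer to the other genotype than its partner did. The group means were 14.7% ± 0.255 and 11.2% ± 2.84 in immature oocytes, 10.2% ± 0.369 and 7.42% ± 0.491 in mature oocytes, and 12.3% ± 3.77 and 6.43% ± 1.99 in activated eggs (mutant and wild type in each pair, SD, n = 2 each).

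The median gene of the 84 told the same order. Its normalised count was 17007 and 16646 in mutant immature oocytes, against 10490 and 13765 in wild type. It was 12273 and 12077 in mutant mature oocytes, against 8611 and 8200 in wild type, and 17578 and 11680 in mutant activated eggs, against 8167 and 6714 in wild type. The median over all 5421 records stayed between 839 and 1203 in the 12 libraries. Among the 100 most abundant protein-coding records, 59 were ribosomal protein genes in the first mutant activated library and 10 in the second wild type activated library, the highest and lowest of the series.

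**Figure D1:**
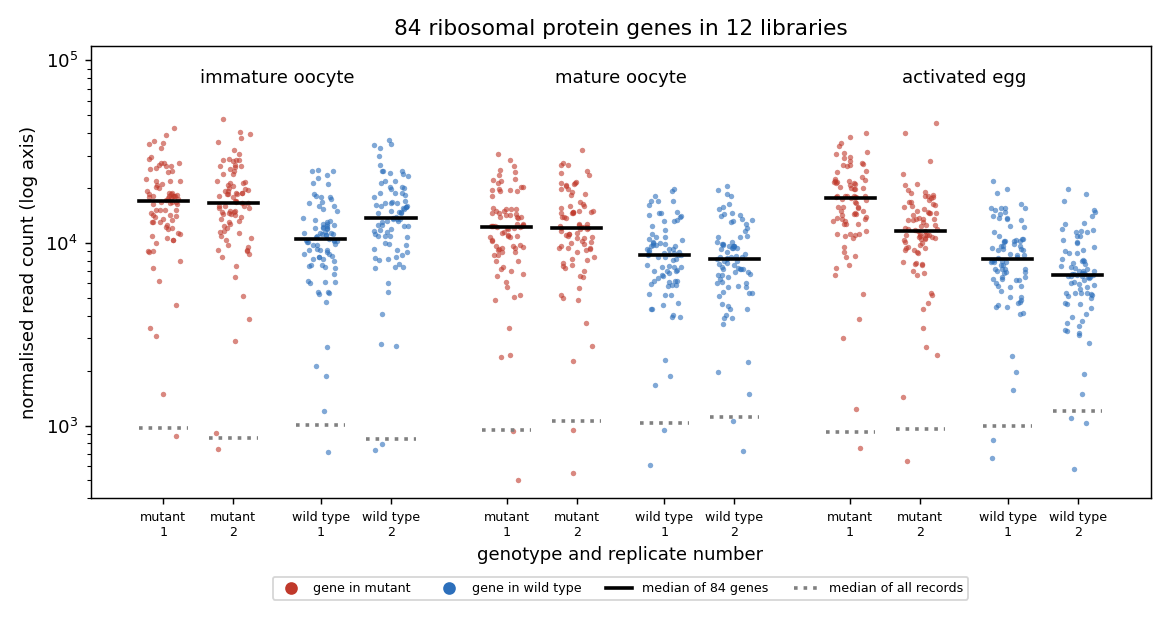
Normalised read count (log axis) of each of the 84 ribosomal protein genes in each of the 12 libraries, with points for genes, solid bars for the median of the 84 and dotted bars for the median of all 5421 records. The median of the 84 is higher in both mutant libraries than in both wild type libraries of each stage, and it differs most between replicates in mutant activated eggs, at 17578 and 11680.

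Compared per kilobase of annotated transcript, the mean level over the 12 libraries differed 130-fold between the highest and lowest gene, with a median of 15550 normalised counts per kb. The top 5 were RpL41 (78068 per kb), which encodes the smallest ribosomal protein, RpL39 (25575 per kb), whose product lines the exit tunnel, the stalk gene RpLP2 (25020 per kb), RpS18 (23968 per kb) and sta (23449 per kb). The lowest 5 were RpL7-like (599 per kb), RpS15Ab (939 per kb), RpL24-like (3353 per kb), RpL34a (3562 per kb) and RpL23A (4199 per kb). Of these, all but RpL23A are paralogs or relatives of a more abundant gene of the list. The per-kb value depends on which transcript is taken as the annotated one. The highest genes, RpL41 and RpL39, have the shortest transcripts, of 320 and 288 nt, but RpL29 with 389 nt had 15642 per kb, near the median.

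The largest median difference between the genotypes was in activated eggs. There 62 of the 84 genes were higher in the mutant and 0 were lower (limma fitted over all 12 libraries and all records, Benjamini-Hochberg adjusted p under 0.05, called from here on), where 7.3% of all records were called higher and 17.7% lower. The median difference was 0.945 on the log2(value + 1) scale, against -0.16 over all records, and the called genes lay between 0.77 and 1.24, or 1.71-fold to 2.36-fold. In 80 genes both mutant libraries were above both wild type libraries, where 21.4% of all records were, and the 4 that overlapped were RpL3, RpL22, RpL28 and RpS15Ab.

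The count of 62 was not stable to the libraries and scaling used. The share of all records called is not given for these other fits, so their counts are not read as a result about the members. Leaving out any library also takes it from the error pooled over the 6 groups, and the part of this in the lower counts was not tested. Without the second wild type activated library no gene was called, without the first mutant activated library 11 were, without the first wild type activated library 46, without either wild type mature library 39 and without either mutant mature library 41. Fitted to the 4 activated libraries alone the count was 0, and scaled to the summed coding counts it was 24. Records with noncoding accessions took 22.6% and 21.4% of the counts in mutant activated eggs, against 14.9% and 10.4% in wild type, and their part in the result was not tested.

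In immature oocytes the direction was the same but no gene was called by limma. At an unadjusted p under 0.05 there were 14, and the share of all records at that threshold is not given here. All 84 differences were positive, with a median of 0.46 against 0.00 over all records, of which 0.0369% were called higher and 0.0738% lower. In 75 genes the genotypes did not overlap, with the mutant higher, where 15.9% of all records did so, and in 0 it was lower, where 7.78% of records were. The 9 that overlapped were RpL3, RpL10Ab, RpL22, RpL23A, RpL28, RpL41, RpL7-like, RpS15Ab and RpS21.

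In mature oocytes no gene was called by limma either, with a lowest adjusted p of 0.0622. There were 38 at an unadjusted p under 0.05, again without the share of all records at that threshold. The median difference was 0.55, against -0.03 over all records, of which 0.683% were called higher and 9.37% lower. In 82 genes both mutant libraries were above both wild type libraries, where 30.2% of all records were. RpS15Ab was below in both, where 39.9% of all records were, and RpL7-like overlapped. Both replicates of each genotype agreed closely here: fitted with only the 4 mature libraries, 79 genes were called higher, where 14.8% of all records were. At all 3 stages together 75 genes were higher in the mutant with no overlap, where 7.29% of records were.

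**Figure D2:**
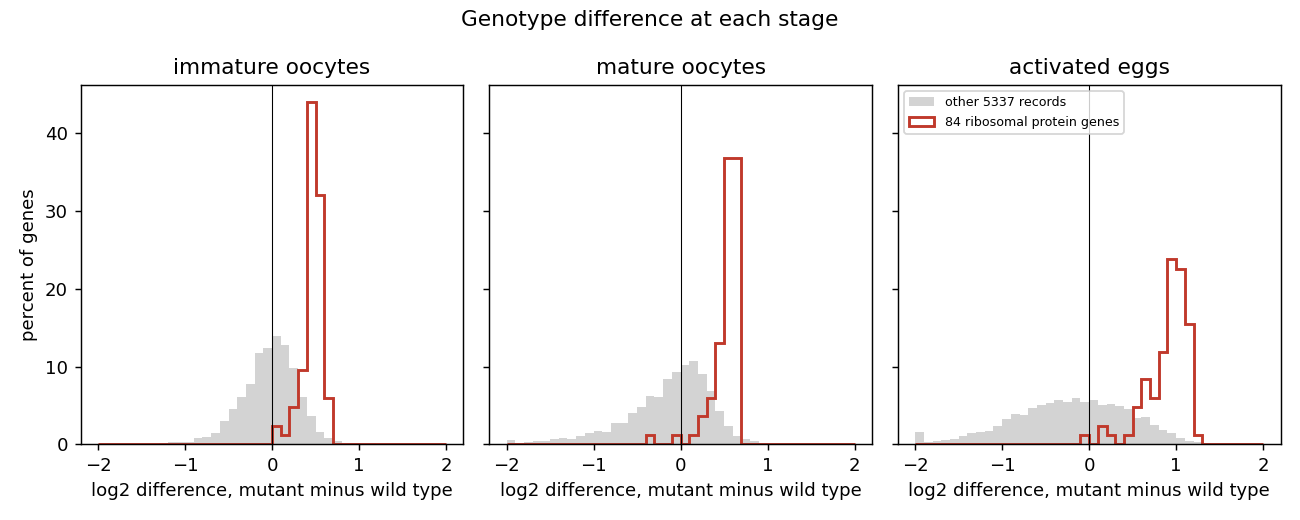
Distribution of the log2 difference, mutant minus wild type, at each stage, with the 84 ribosomal protein genes as an outline and the other 5337 records in grey, each as a percent of its own number and with values past 2 in either direction drawn in the end bins. The medians of the 84 lie at 0.46, 0.55 and 0.945 in immature oocytes, mature oocytes and activated eggs.

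Large subunit genes were called higher in mutant activated eggs in 34 of 50 cases, where 7.3% of all records were. RpL21 had 20049 and 17970 counts in mutant activated eggs, against 9614 and 7158 in wild type (log2 difference 1.19 ± 0.21 SE, limma adjusted p = 0.00745). Both mutant values were well above both wild type values. In mature oocytes RpL21 also had the largest difference, 13953 and 16324 in the mutant against 9312 and 9298 in wild type (0.70 ± 0.21, adjusted p = 0.0808), which did not pass.

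RpL38, the gene of a Minute locus in the heterochromatin of chromosome 2, had 8412 and 9112 counts in mutant activated eggs, against 4676 and 3146 in wild type (1.19 ± 0.24, limma adjusted p = 0.0113). RpL10, whose yeast counterpart joins the subunit last, had 31622 and 23868 against 15536 and 10332 (1.12 ± 0.26, adjusted p = 0.0194). Both genes were without overlap at this stage. RpL11, which enters the ribosome with RpL5 and the 5S ribosomal RNA, had 19837 and 13459 in mutant activated eggs, against 8327 and 6566 in wild type (1.14 ± 0.25, adjusted p = 0.0163).

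RpL41 had the largest difference in activated eggs and also the largest error. Its counts were 35428 and 45170 in the mutant, against 15621 and 18472 in wild type (1.24 ± 0.37, limma adjusted p = 0.0417). In immature oocytes its libraries overlapped, with 38994 and 17046 in the mutant, against 23485 and 15744 in wild type. The second mutant immature library was lower than the first by 1.19 on the log2 scale, the widest fall of any of the 84 between those libraries. The gene lies wholly within the span of NaCP60E, a sodium channel gene on the opposite strand. The kit is not stated to keep strand and overlap of exons was not checked, so their reads may not be separable.

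RpL29 had the largest difference of the 84 in immature oocytes. It had 8998 and 8346 counts in the mutant, against 4749 and 6064 in wild type (0.69 ± 0.22, limma adjusted p = 0.469). RpL39 differed by 0.62 ± 0.24, with 10351 and 10953 in the mutant, against 5999 and 8018 in wild type (adjusted p = 0.696). Neither passed, although their genotypes did not overlap. In activated eggs both were called, RpL29 at 1.10 ± 0.22 (adjusted p = 0.0117) and RpL39 at 1.11 ± 0.24 (adjusted p = 0.0155).

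Small subunit genes were called higher in mutant activated eggs in 28 of 34 cases, where 7.3% of all records were. Their median difference of 0.97 was close to the 0.93 of the large subunit. RpS3A had 40032 and 40017 counts in mutant activated eggs, against 18710 and 16917 in wild type (1.17 ± 0.19, limma adjusted p = 0.00609). Replicates lay close together in both genotypes.

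RpS6, the small subunit protein that S6 kinase phosphorylates, had 26324 and 18135 counts in mutant activated eggs, against 13699 and 11803 in wild type (0.78 ± 0.22, limma adjusted p = 0.0362). RpS3, at the mRNA entry channel, had 24567 and 17135 against 12288 and 11443 (0.79 ± 0.22, adjusted p = 0.0313). In mature oocytes RpS3 had 19390 and 19872 in the mutant, against 12442 and 12014 in wild type (0.68 ± 0.22, adjusted p = 0.0947), so the replicates were close and the genotypes apart, yet the pooled error left it short. RpS26, at the mRNA exit, had 18281 and 18591 in mutant immature oocytes, against 10160 and 13849 in wild type (0.64 ± 0.23, adjusted p = 0.64).

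The gene sta had 42628 and 47859 counts in mutant immature oocytes, against 24701 and 36584 in wild type (0.59 ± 0.32, limma adjusted p = 0.76). It had 24352 and 24293 in mutant mature oocytes, against 16960 and 15694 in wild type (0.58 ± 0.32, adjusted p = 0.36), and 33772 and 19618 in mutant activated eggs, against 15555 and 10048 in wild type (1.04 ± 0.32, adjusted p = 0.0453). Only the activated difference passed, and the genotypes did not overlap at any stage.

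The stalk of the large subunit recruits the elongation factors, with RpLP0 as the anchor for RpLP1 and RpLP2. In activated eggs RpLP0 had 31073 and 18928 counts in the mutant, against 16270 and 10166 in wild type (0.92 ± 0.33, limma adjusted p = 0.0754). RpLP1 had 19952 and 13738 against 10945 and 6822 (0.94 ± 0.30, adjusted p = 0.0513), and RpLP2 had 21053 and 13448 against 10544 and 6797 (0.99 ± 0.31, adjusted p = 0.0474). Only RpLP2 passed, but the estimates of the 3 genes lay within 0.1 of each other, well inside their errors. In immature oocytes they had differences of 0.49, 0.51 and 0.52 and in mature oocytes 0.54, 0.63 and 0.55, in the order RpLP0, RpLP1 and RpLP2, none called.

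The 2 subunits moved together in each library. The median small subunit gene stood above the median large subunit gene by 0.16 on the log2 scale at most, in the second mutant activated library, and by -0.01 at least, in the first wild type mature library. For 72 of the 84 genes the log2 value over the 12 libraries correlated with the members' median at an r of 0.9 or more, and the median r was 0.98. These 12 points share their library and normalisation with the median they are set against. The weakest were RpL7-like (r = 0.24), RpS15Ab (0.48), RpL41 (0.50) and RpL22 (0.55).

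A few genes had differences far below the members' median in activated eggs. RpL22, whose fly protein carries a histone H1-like extension, had 11162 and 7032 counts in mutant activated eggs, against 9272 and 9454 in wild type (-0.08 ± 0.28, limma adjusted p = 0.871). RpL3, near the peptidyl transferase centre, had 29569 and 17530 in the mutant, against 21728 and 19847 in wild type (0.13 ± 0.29, adjusted p = 0.788). In both genes the wild type values fell between the mutant values.

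RpS15Ab had 749 and 638 counts in mutant activated eggs, against 665 and 575 in wild type (0.16 ± 0.17, limma adjusted p = 0.556). RpL28 had 6681 and 4365 against 4768 and 4106 (0.29 ± 0.25, adjusted p = 0.45), and RpL4, which lines the exit tunnel, had 27209 and 16763 against 15560 and 14841 (0.49 ± 0.28, adjusted p = 0.229). RpL4 alone of these 3 did not overlap.

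Such genes were noticed as low in these same data. To set them beside the other members, the members' median was subtracted from every value of each library and the fit repeated. In activated eggs 6 genes were then lower in the mutant relative to the rest: RpL22 at -1.03 ± 0.22 (limma adjusted p = 0.00457), RpL3 at -0.82 ± 0.17 (adjusted p = 0.00349), RpS15Ab at -0.79 ± 0.19 (adjusted p = 0.00804), RpL28 at -0.66 ± 0.14 (adjusted p = 0.00458), RpL4 at -0.46 ± 0.15 (adjusted p = 0.0244) and RpL6 at -0.36 ± 0.13 (adjusted p = 0.0371). In this centred fit 61.5% of all records were called lower, since their difference was below that of the ribosomal protein genes. The coding sequences of RpL3, RpL4, RpL22 and RpL6 span 1248, 1203, 897 and 786 nt, above the members' median of 466.5 nt, while those of RpL28 and RpS15Ab span 432 and 390 nt. Over the 84 genes the difference between the replicates of mutant activated eggs also followed log2 coding length (r = -0.521).

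**Figure D3:**
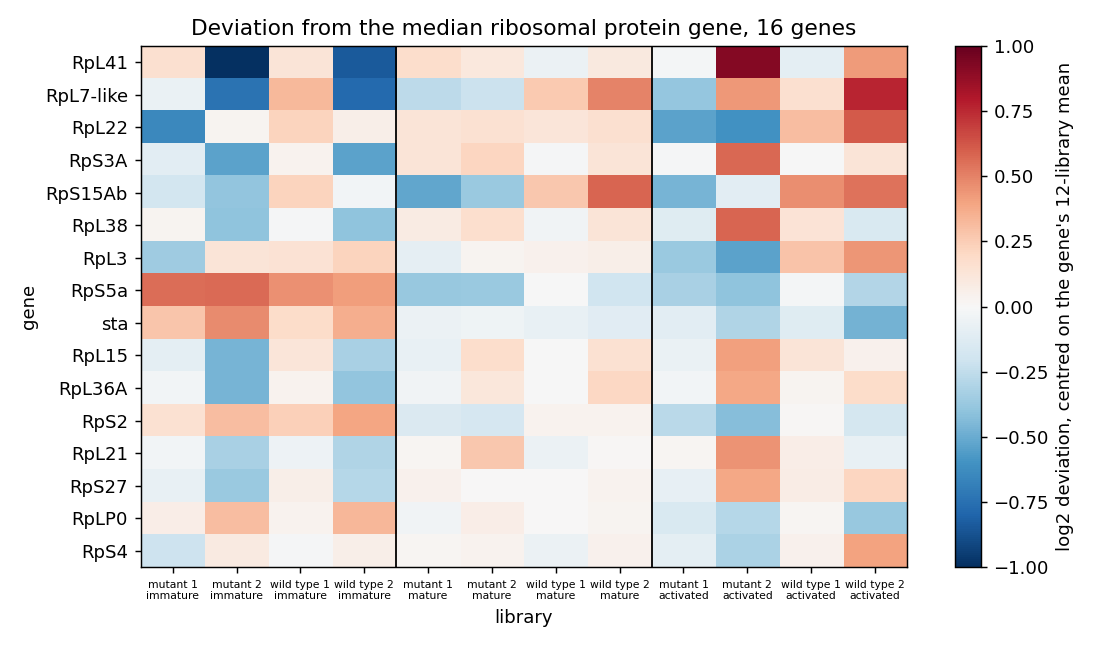
Deviation of 16 ribosomal protein genes, those that left the group by most, from the median of the 84 in each library, on a log2 scale centred on the gene's own mean over the 12 libraries and drawn up to 1 in either direction. RpS5a is high in all 4 immature libraries, RpS15Ab lower in mutant than wild type mature oocytes, and RpL22 and RpL3 lower in mutant than wild type activated eggs.

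Paralogs gave separate pictures, within the limit that the authors' counting of reads shared by near-identical copies is unknown. RpS5a and RpS5b encode versions of a small subunit protein at the mRNA exit, and RpS5b is the form enriched in the female germline. The count of RpS5b over RpS5a was 1.24 and 1.44 in mutant immature oocytes, against 1.27 and 1.48 in wild type. It was 2.71 and 2.83 in mutant mature oocytes, against 2.063 and 2.495 in wild type, and 2.63 and 2.77 in mutant activated eggs, against 2.12 and 2.67 in wild type. The ratio was higher after the immature stage in both genotypes, and the genotypes overlapped in immature oocytes and in activated eggs but not in mature oocytes. RpS5a had 5734 and 5663 counts in mutant mature oocytes, against 15155 and 14961 in mutant immature oocytes.

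RpS15Aa and RpS15Ab also differed. In mature oocytes RpS15Ab had 504 and 551 counts in the mutant, against 611 and 722 in wild type (-0.33 ± 0.17, limma adjusted p = 0.322), and relative to the members' median it was lower in the mutant, at -0.87 ± 0.19 (adjusted p = 0.0113), where 29.8% of all records were called lower. RpS15Aa had 12109 and 12684 against 8771 and 9595 (0.43 ± 0.22, adjusted p = 0.306). The count of RpS15Aa over RpS15Ab was 24.0 and 23.0 in mutant mature oocytes, against 14.4 and 13.3 in wild type. It was 19.9 and 22.2 in mutant immature oocytes, against 15.8 and 18.4 in wild type, and 22.1 and 19.5 in mutant activated eggs, against 15.5 and 14.0 in wild type. The genotypes did not overlap at any stage.

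The other pairs kept narrower ratios. RpS14a over RpS14b, a tandem pair on chromosome X, was between 1.84 and 2.29 over the 12 libraries, and in activated eggs both were called (RpS14a 1.11 ± 0.26, limma adjusted p = 0.0189, and RpS14b 0.99 ± 0.27, adjusted p = 0.0325). RpL34b over RpL34a was between 2.62 and 3.16, and both were called in activated eggs (RpL34b 1.10 ± 0.24, adjusted p = 0.0155, and RpL34a 1.05 ± 0.25, adjusted p = 0.0196). RpL24 over RpL24-like was between 3.87 and 4.90, and both were called there as well. RpL7 over RpL7-like ran more widely, from 12.5 to 33.8. RpL7-like had 934 and 950 counts in mutant mature oocytes, against 942 and 1053 in wild type (-0.08 ± 0.30, adjusted p = 0.972).

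**Figure D4:**
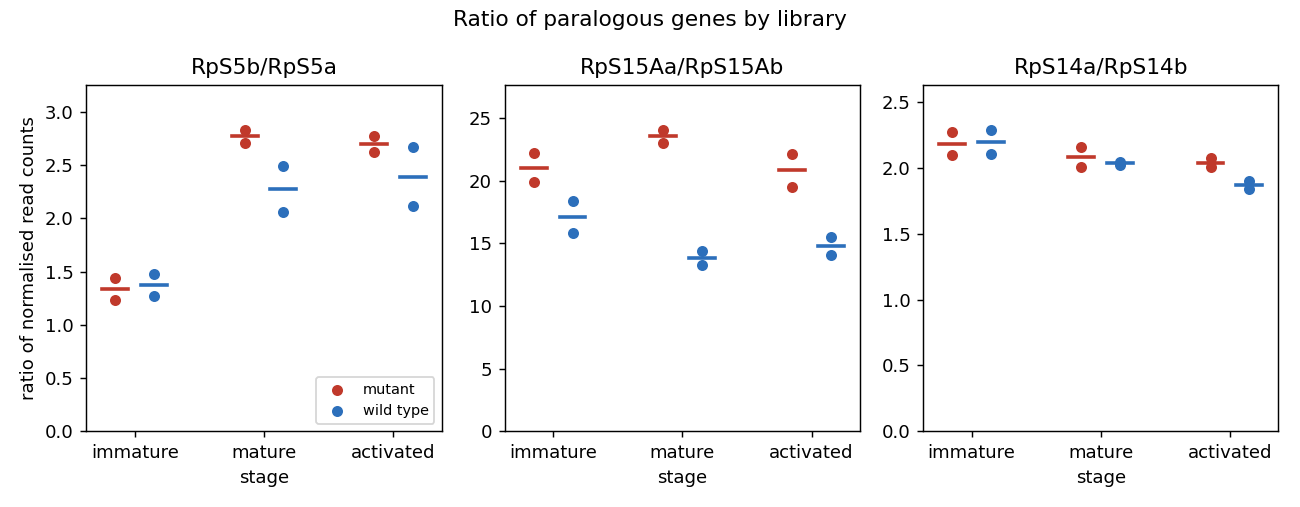
Ratio of normalised read counts within 3 paralog pairs in each library, with a point for each library and a bar for the mean of the 2 libraries of a group. The RpS5b over RpS5a ratio is between 1.24 and 1.48 in immature oocytes and at 2.06 or more afterwards, and the RpS15Aa over RpS15Ab ratio is higher in the mutant at each stage.

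Ribosomal protein mRNAs are short, and in activated eggs the genotype difference followed transcript length over the whole table. The median annotated transcript had 869.5 nt for the 84 genes, against 2206.5 nt for 5360 protein-coding records with a length. Across those records the log2 difference in activated eggs correlated with log2 length at r = -0.52, a description over genes measured in the same libraries. In mature oocytes the same r was 0.05 and in immature oocytes -0.47.

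Within each length class the median difference of the ribosomal protein genes was above that of other coding records. The classes were broad and not matched on level, and the part of length in the difference was not tested. In activated eggs the median difference was 1.11 for the 3 members under 500 nt, against 0.62 for 40 other records. For transcripts from 500 to under 1000 nt it was 0.95 for 50 members, against 0.43 for 493 others, and from 1000 to under 2000 nt it was 0.87 for 30 members, against 0.11 for 1740 others. In mature oocytes, where length was hardly related to the difference, the medians in the same 3 classes were 0.66, 0.55 and 0.54 for members, against -0.00, -0.08 and -0.09 for others. In immature oocytes they were 0.62, 0.46 and 0.47 for members, against 0.20, 0.16 and 0.11 for others.

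With a smooth trend on length removed from each library, 15 members were called higher in activated eggs and 19 in mature oocytes, where 2.4% and 1.64% of all records were. Among the 84 genes themselves the activated difference correlated with log2 coding length at r = -0.48, so that the genes with longer coding sequences tended to have smaller differences. A relation as strong was present between replicates of 1 genotype. The second minus the first library correlated with log2 coding length at r = -0.521 in mutant activated eggs and 0.539 in mutant immature oocytes. In wild type activated eggs this r was 0.062. RpL5, the only member with an annotated transcript over 2000 nt, had a difference of 0.975 in activated eggs, but its deposited record may be another isoform than the annotated one of 3835 nt.

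**Figure D5:**
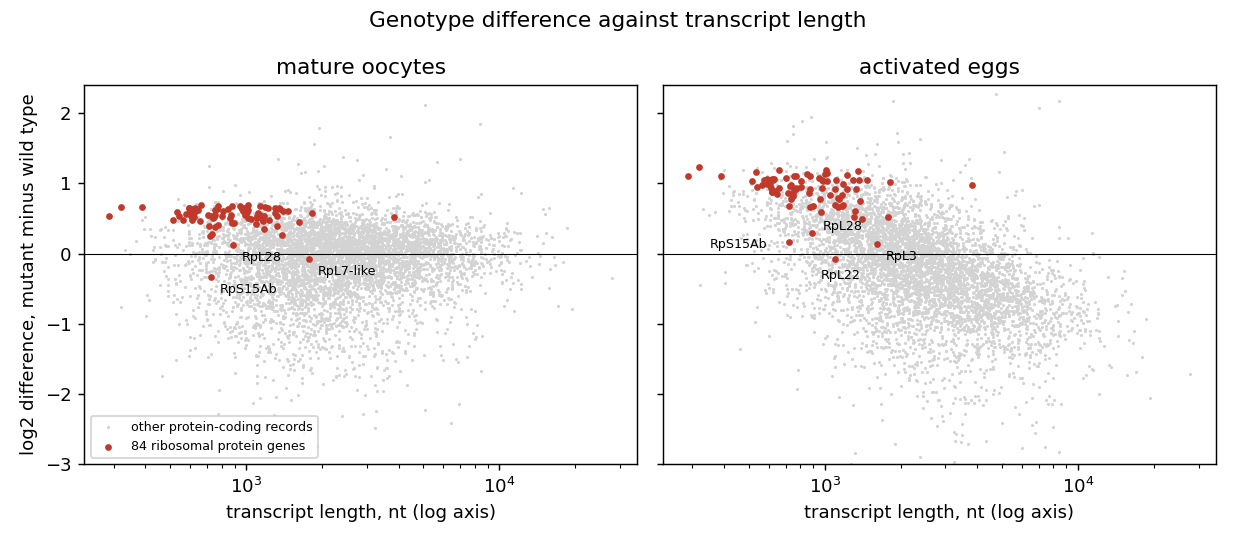
Log2 difference, mutant minus wild type, against annotated transcript length (log axis) for the 84 ribosomal protein genes in red and other protein-coding records in grey, in mature oocytes and activated eggs. The vertical axis stops at -3 and 2.4, which leaves 5 and 6 records undrawn in mature oocytes and activated eggs. In both panels the median of the red points is above that of the grey points in each length class. Single red points, such as RpS15Ab in both panels and RpL22 in activated eggs, lie below the grey median of their class.

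From immature to mature oocytes the ribosomal protein genes tended to be lower. In the mutant 2 genes were called lower in mature than in immature oocytes and 0 higher, where 11.4% of all records were called lower and 1.68% higher. RpS5a differed by -1.40 ± 0.28 (limma adjusted p = 0.0146). RpL13A, with 11499 and 11292 counts in mutant mature and 22399 and 21805 in mutant immature oocytes, differed by -0.96 ± 0.25 (adjusted p = 0.0417). Neither was called once any of the 4 mutant immature or mature libraries was left out.

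Next in size in the mutant were sta at -0.89 ± 0.32, RpS2 at -0.85 ± 0.29 and RpL28 at -0.79 ± 0.25, with limma adjusted p of 0.104, 0.0926 and 0.0769. The median was -0.46, against 0.05 over all records, and both mature libraries were below both immature libraries in 75 genes, where 34.4% of records were, and above them in 0, where 32.8% were. Relative to the members' median RpS5a was also lower, at -0.94 ± 0.15 (adjusted p = 0.0162), where 3.6% of all records were called lower. The least changed were RpL41 at 0.09, RpS3A at 0.03 and RpL22 at -0.02.

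In wild type no ribosomal protein gene was called by limma for the same step, and 0% of all records were. At an unadjusted p under 0.05 there were 42 members, with no share of all records given at that threshold. The median was -0.55, against 0.14 over all records, and 81 genes were lower in mature oocytes with no overlap, where 17.4% of records were, and 0 higher, where 25.9% were. RpS5a again differed most, with 5212 and 4324 counts in wild type mature oocytes and 8716 and 11137 in wild type immature oocytes (-1.05 ± 0.28, adjusted p = 0.306). Then came sta at -0.88, RpS2 at -0.80, RpLP2 at -0.73 and RpS21 at -0.73, while RpL7-like had 0.09. The first wild type immature library was low for ribosomal protein genes, and the second exceeded it by a median of 0.45, against 0.03 over all records.

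From mature oocytes to activated eggs no member was called by limma in either genotype, and 0 members reached an unadjusted p under 0.05 in either. Of all records 0% were called higher and 0.0184% lower in the mutant, and 0% higher and 0.0553% lower in wild type. The mutant median was 0.26, against -0.03 over all records, with 80 positive differences, and 32 genes were higher in activated eggs with no overlap, where 13.7% of records were. The wild type median was -0.15, against 0.02 over all records, with 5 positive differences, and 20 genes were lower with no overlap, where 25% of records were. RpL41 (0.54) and RpL7-like (0.50) had the highest values in the mutant and RpL22 (-0.47) the lowest, while in wild type RpL22 (0.14) was highest and sta and RpLP0 (both -0.38) lowest. With the length trend removed both medians turned sign, to -0.06 in the mutant and 0.08 in wild type.

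The genotype difference in these changes was tested as an interaction. For the maturation step 0 of the 84 were called by limma and 0 had an unadjusted p under 0.05, with a median of 0.09, where 1.03% of all records were called lower and 0% higher. For the activation step 0 were called and 0 had an unadjusted p under 0.05, with a median of 0.42 and 79 positive values, where 0% of all records were called. With the length trend removed this median was -0.14, of the opposite sign. The extremes were RpL7-like at 0.60 ± 0.42 (adjusted p = 0.608) and RpL22 at -0.61 ± 0.39 (adjusted p = 0.583). The larger genotype difference of activated eggs than of mature oocytes was therefore not past the threshold for any single gene.

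The spread between replicates differed by stage. The second library minus the first had a median over the 84 genes of 0.04 in mutant and 0.45 in wild type immature oocytes. It was 0.01 and -0.04 in mutant and wild type mature oocytes, and -0.54 and -0.31 in mutant and wild type activated eggs. The error of each gene was pooled over the 6 groups, so mature oocytes, with the closest replicates, were given the same error as mutant activated eggs, with the most distant.

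Other genes of protein synthesis were set beside the ribosomal protein genes. Of 12 translation genes often grouped with them, 3 were called higher in activated eggs and 0 lower, where 7.3% of all records were higher and 17.7% lower. They were bic, a subunit of the nascent polypeptide-associated complex, at 0.98 ± 0.18 (limma adjusted p = 0.00772), the elongation factor subunit gene Ef1beta at 0.75 ± 0.23 (adjusted p = 0.047) and Tctp at 0.56 ± 0.18 (adjusted p = 0.049). In mature oocytes the elongation factor gene Ef1alpha48D was higher at 0.76 ± 0.16 (adjusted p = 0.0207). RpLP0-like, which the symbol rule left out, was lower there at -0.90 ± 0.16 (adjusted p = 0.00947). In the mutant it was also lower in mature than in immature oocytes (-1.47 ± 0.16, adjusted p = 0.00168), and Nacalpha, the partner of bic, was as well (-0.97 ± 0.25, adjusted p = 0.0407).

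Some genes needed to make ribosomes were lower in the mutant in mature oocytes and activated eggs. Of 14 regulators of ribosomal protein gene transcription and ribosome synthesis, 5 were lower in mutant than wild type mature oocytes, where 9.37% of all records were, and 5 in activated eggs, where 17.7% were, with 0 higher at either stage. In immature oocytes 0 of the 14 were called, with a median of -0.01. Fib, the rRNA methyltransferase fibrillarin, had 198 and 157 counts in mutant mature oocytes, against 1006 and 915 in wild type (-2.44 ± 0.28, limma adjusted p = 0.00201), and 193 and 107 in mutant activated eggs, against 968 and 1101 in wild type (-2.84 ± 0.28, adjusted p = 0.00123). RpI1, the largest subunit of RNA polymerase I, had 484 and 452 in mutant mature oocytes, against 2228 and 2162 in wild type (-2.23 ± 0.21, adjusted p = 0.00149). In immature oocytes the genotypes overlapped for both genes, with Fib at 1522 and 1846 in the mutant, against 1442 and 1853 in wild type.

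NHP2, a protein of the box H/ACA snoRNPs, was lower in the mutant, at -1.95 ± 0.22 in mature oocytes (limma adjusted p = 0.00161) and at -1.66 ± 0.22 in activated eggs (adjusted p = 0.00249). For Fib, NHP2 and RpI1 the genotype difference in the maturation change was itself called, at -2.47, -2.13 and -2.12 (adjusted p = 0.0333, 0.0274 and 0.0274). In the mutant 7 of the 14 genes were lower in mature than in immature oocytes, where 11.4% of all records were. The low mutant values of Fib and NHP2 lie near the listing floor of 100. NHP2 had 151.8 and 167.5 counts in mutant mature oocytes and 176.4 and 179.5 in mutant activated eggs.

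Of 10 TOR and S6 kinase genes, 4 were called lower in mutant activated eggs and 0 higher. Of all records 17.7% were called lower and 7.3% higher. The list was not split into genes that promote and genes that restrain the pathway. Tor had 773 and 464 counts in the mutant, against 3140 and 3495 in wild type (-2.47 ± 0.41, limma adjusted p = 0.00633), and rictor had 1116 and 892, against 3565 and 4808 (-2.05 ± 0.26, adjusted p = 0.00222). The others were gig at -1.33 and raptor at -0.82. Other coding records of 2000 nt and over also had a negative median of -0.44 at this stage.

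The nuclear genes of mitochondrial ribosomal proteins were 65 in the table. In mature oocytes 20 of them were called lower in the mutant and 0 higher, with a median of -0.45, where 9.37% of all records were lower. In activated eggs 11 were lower and 5 higher, with a median of -0.08, which is close to the 17.7% lower and 7.3% higher of all records. In the mutant 38 of the 65 were lower in mature than in immature oocytes, where 11.4% of all records were.

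The 84 genes were spread over the genome much as other coding records were (coordinates of the dm6 assembly as annotated by Ensembl). Chromosome X held 15 of them, 2L 17, 2R 18, 3L 14, 3R 19 and chromosome 4 only RpS3A, at chr4:65225-67207 on the minus strand. RpL21 lies at chr2L:22247111-22247875, RpL22 at chrX:762560-765130 and RpS5a at chrX:17143588-17148264, all on the minus strand. RpL3 lies at chr3R:11221894-11225173 on the plus strand. A snoRNA gene lies on the same strand inside 29 of the 84. Another protein-coding gene overlaps 21, of which 20 have one on the opposite strand, and RpL7-like shares 1904 bases with CG34164 on the same strand, so the reads of these neighbours may not be separable.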

How the data were processed

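RNA of 12 libraries was measured by sequencing. Each deposited value is a normalised read count that the authors made for a transcript record, a signal and not a whole number. STAR 2.4.2a, RSEM 1.2.25, HTSeq and dm6 are named, with no roles, in the submitters' processing notes. How they were normalised, with or without the spike-ins, was not given in the sources used, which leaves unknown whether a shift of all transcripts together would show. Of 5422 records 1 identical duplicate was removed. No step turned low values into whole reads: at best 17.2% were whole within 0.05, where 10% would be by chance.

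Differences are on the log2(value + 1) scale. A single limma 3.58.1 fit (R 4.3.3, with a trend on mean level) estimated 6 group means, with 6 residual and 2.43 prior degrees of freedom. P-values were Benjamini-Hochberg adjusted over 5421 records, with 0.05 as the threshold. With 2 libraries per group the spread is pooled over groups. The code was tested on simulated data. Lengths and coordinates came from the Ensembl gene models, in which 84 of 84 members were found.

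The members and lists were chosen with earlier results of these data known. Named were, per comparison, the 5 members with the highest and the 5 with the lowest difference, and across comparisons the paralogs, stalk genes, sta, RpS6, RpS3, RpL10, the 5 highest and 5 lowest per kb, the members farthest from the members' median, and up to 3 called genes per direction of each further list. A gene that this rule names is not reported here. Other members (RpS26 at the mRNA exit, RpL6 and RpL5, for example) were named after their values were seen. Alternatives were pseudocounts of 0.5 and 5, a filter on a mean of 200, other scalings, removal of a length trend, replicate blocks, fits on fewer groups and each library left out.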

Additional observations from a re-analysis of the deposited data

How the results depend on the processing

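Counts of called members changed with the processing, and where no reason is given the cause was not tested. For most alternatives the share of all records called is not given, so their counts show only the dependence on processing. In mature oocytes 0 called members became 1 centred on the members' median, 19 with the length trend removed and 79 with only the 4 mature libraries. In activated eggs 62 became 24 scaled to the coding sum, 4 with quantile normalisation, 15 with the length trend removed and 0 with only the 4 activated libraries, while leaving out the immature libraries (an alternative chosen after seeing the data) gave 64. Centring on the members lowers every difference in activated eggs alike, so any member under their median turns sign by construction: 6 were then called, all lower, among them RpL3 at -0.82, RpS15Ab at -0.79, RpL28 at -0.665, RpL4 at -0.46 and RpL6 at -0.36, which were positive uncentred. For mature against immature mutant oocytes, 2 became 1 with median-of-ratios scaling, the coding sum, centring or the length trend removed, 0 with quantile normalisation and 4 with only the libraries compared.

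Replicate numbers are not stated to mark a shared batch. Deviations of same-numbered libraries of the 2 genotypes correlated over all records at 0.849 (immature), 0.483 (mature) and 0.771 (activated), and negatively between immature and later stages, so the data hint at a shared deviation within a stage that the labels do not state, and the numbers were not treated as pairs. With a replicate block within each stage, 34 members were called in mature oocytes and 78 in activated eggs, including all 62. The share of all records called is not given for any block fit, so counts from block fits are not read as a result about the members. With a replicate block over all stages, 43 were called in activated eggs and 1 for mature against immature mutant oocytes. With the block within each stage and the length trend removed (chosen after seeing the data), 1 was called in immature oocytes, 72 in mature oocytes and 34 in activated eggs, of which 1 was lower, RpS15Ab at -0.44.

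Leaving out each library in turn gave 0 to 65 calls in activated eggs, 0 to 1 in mature oocytes and 0 to 3 for mature against immature mutant oocytes, and 0 in the other comparisons. The median genotype difference stayed between 0.24 and 0.69 in immature oocytes, 0.28 and 0.61 in mature oocytes and 0.37 and 1.19 in activated eggs in every alternative other than centring. The median change at activation turned sign with the length trend removed in both genotypes, as did their difference. Median-of-ratios scaling and quantile normalisation moved the median of all records in activated eggs by 0.21 and 0.20. Values of single named members kept direction and call in 1939 cases, lost the call in 51, gained it in 26, changed sign without a call in 109 and reversed with a call in 5. Unknown depth and 2 libraries per group limit every call.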
